A study of Mus musculus with 24 samples.

Results

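The comparison described here set Cre+ microglia in remyelination against Cre+ microglia in demyelination, with 3 libraries in each group, which are 6 of the 24 RNA-seq libraries of the study. The libraries were chosen by the genotype, state and tamoxifen timing in their labels, not by any measured value. Remyelination mice had eaten cuprizone for 6 weeks and then normal diet for 6 weeks. Demyelination mice were taken after the 6 weeks of cuprizone. Naive Cre+ mice, which had tamoxifen and no cuprizone, gave 3 more libraries as a level to return to, and 3 Cre- libraries of each of the remyelination and demyelination states show the same change without the recombinase. All of these mice were treated with tamoxifen at the start, placed by the design text at 4 to 5 weeks in both cuprizone-fed states. Cre+ mice carry Cx3cr1creERT2, a Cre recombinase under the Cx3cr1 locus that tamoxifen switches on to delete Dicer1, and Cre- mice, called WT by the submitters, lack it. The RNA came from adult brain cells sorted by flow for intermediate CD45 and for CD11b. The labels call the libraries biological replicates and do not say whether animals were pooled. Because Cx3cr1 drives the recombinase, other cells that use this locus, such as macrophages of the brain's borders, can lose Dicer1 as well.

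Microglia are the resident macrophages of the brain. Cuprizone, a copper chelator given in the diet, kills oligodendrocytes and strips axons of myelin, and microglia clear the debris, take up cholesterol-rich lipid and divide. During this work they lower genes of the resting, homeostatic state and raise a set known as the disease-associated microglia programme. When cuprizone is withdrawn, new oligodendrocytes rebuild myelin and the microglial response winds down. Dicer1 is the ribonuclease of the last cut in miRNA maturation, and the comparison follows this period in microglia in which its deletion had been induced.

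The remyelination libraries differed from the others in more than state. Totals were 10.7, 12.56 and 10.77 M assigned reads in Cre+ remyelination, 32.71, 25.49 and 22.38 M in Cre+ demyelination and 23.53 to 44.53 M in naive Cre+ libraries. Cytosolic ribosomal protein genes took 0.531% to 0.632% of reads in Cre+ remyelination and 1.35% to 1.40% in Cre+ demyelination. The titles of remyelination libraries also follow another naming pattern. State, days since tamoxifen and library set coincide, and their effects cannot be told apart between these groups. In bulk RNA from sorted cells, fewer cells of a type and less RNA per cell cannot be told apart either.

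Dicer1 (ENSMUSG00000041415, chromosome 12, 104687742 to 104751952) was higher in remyelination than in demyelination in summed exon counts. Whether it was lower in Cre+ than in Cre- libraries of the same state was not tested. Levels are in CPM, read counts scaled by the library's total times its TMM scaling factor. These factors were 1.16 to 1.23 in Cre+ remyelination and 0.79 to 0.83 in Cre+ demyelination. Dicer1 stood at 32.8, 32.4 and 35.2 CPM in Cre+ remyelination, against 11.6, 15.7 and 17.5 CPM in Cre+ demyelination. Naive Cre+ libraries had 21.8, 22.1 and 24.3 CPM. The remyelination libraries were the highest and did not overlap either other group. The log2 change was 1.17 ± 0.16 relative to demyelination (SE, edgeR quasi-likelihood test, Benjamini-Hochberg adjusted p = 1e-06) and 0.56 ± 0.16 relative to naive (edgeR, adjusted p = 0.00442). Cre- libraries moved alike, with 33.9, 39.1 and 34.8 CPM in remyelination and 23.1, 22.7 and 15.2 CPM in demyelination, and the difference between genotypes was not called (0.34 ± 0.23 on the log2 scale, edgeR, adjusted p = 0.464). With a correction for gene length and GC content Dicer1 was 0.43 above demyelination (edgeR, adjusted p = 0.0259) and not called against naive (-0.11, adjusted p = 0.552). Where a deletion leaves the rest of a transcript in place, a gene total cannot measure it.

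Cx3cr1 (ENSMUSG00000052336, chromosome 9, 119901616 to 120069879), the gene that carries the recombinase and encodes the fractalkine receptor, separated the libraries within groups. It stood at 3579.5, 3463 and 4309 CPM in Cre+ remyelination, 104, 2312 and 89.6 CPM in Cre+ demyelination and 227, 4432 and 4571 CPM in naive Cre+ libraries. Demyelination replicates 1 and 3 held 1.87% and 1.61% of the mean of the Cre- demyelination libraries, and replicate 2 held 41.5%, while the remyelination libraries held 47.6% to 59.3% of their own Cre- mean. The fitted change of 2.18 ± 0.98 was not called (edgeR, adjusted p = 0.0636). Without the 3 low libraries, which leaves 1 Cre+ demyelination library, it was 0.71. Without demyelination replicate 2 it was 5.31 (edgeR, adjusted p = 5.76e-05), and upper-quartile scaling (2.37, adjusted p = 0.0455) and a stricter low-count filter (2.3, adjusted p = 0.0459) also gave a call. Results that rest on demyelination replicates 1 and 3, or on naive replicate 1 (2.18%), are given below without these libraries where their call or size then differed. That leaves 1 library in Cre+ demyelination, and calls made or lost there rest on it, with the spread taken from other groups.

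Across the transcriptome the change between the states was broad. Of 17579 genes tested, 11132 passed an adjusted p of 0.05 in edgeR (63.3%), which is what "called" means from here on. Of these, 5709 were higher (32.5%) and 5423 lower (30.8%) in remyelination, and 68% of all genes had no overlap in CPM between the groups. The median log2 change over all genes was 0.12. Upper-quartile scaling moved it by 0.215 and gave 7137 higher and 4428 lower, and a correction for gene length and GC content moved it by -0.138 and gave 4427 higher and 6185 lower. A gene list is therefore read against these shares. Changes of genes and lists are on the log2 scale, with the SE of the edgeR fit after ± and 3 libraries in every group, and a gene is said to rise or fall only where its edgeR call was made. Relative to naive Cre+ microglia 10173 genes were called (57.9%), 5033 higher (28.6%) and 5140 lower (29.2%), with a median of 0.055. Against naive, upper-quartile scaling gave 6519 higher and 3472 lower, and the length and GC correction gave 3351 higher and 7658 lower. Of the 5423 genes that fell, 565 were still above naive, 3479 were below it and 1379 did not differ from it by a call. This split, like the later counts of list members above or below naive, is that of the main scaling.

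**Figure D1:**
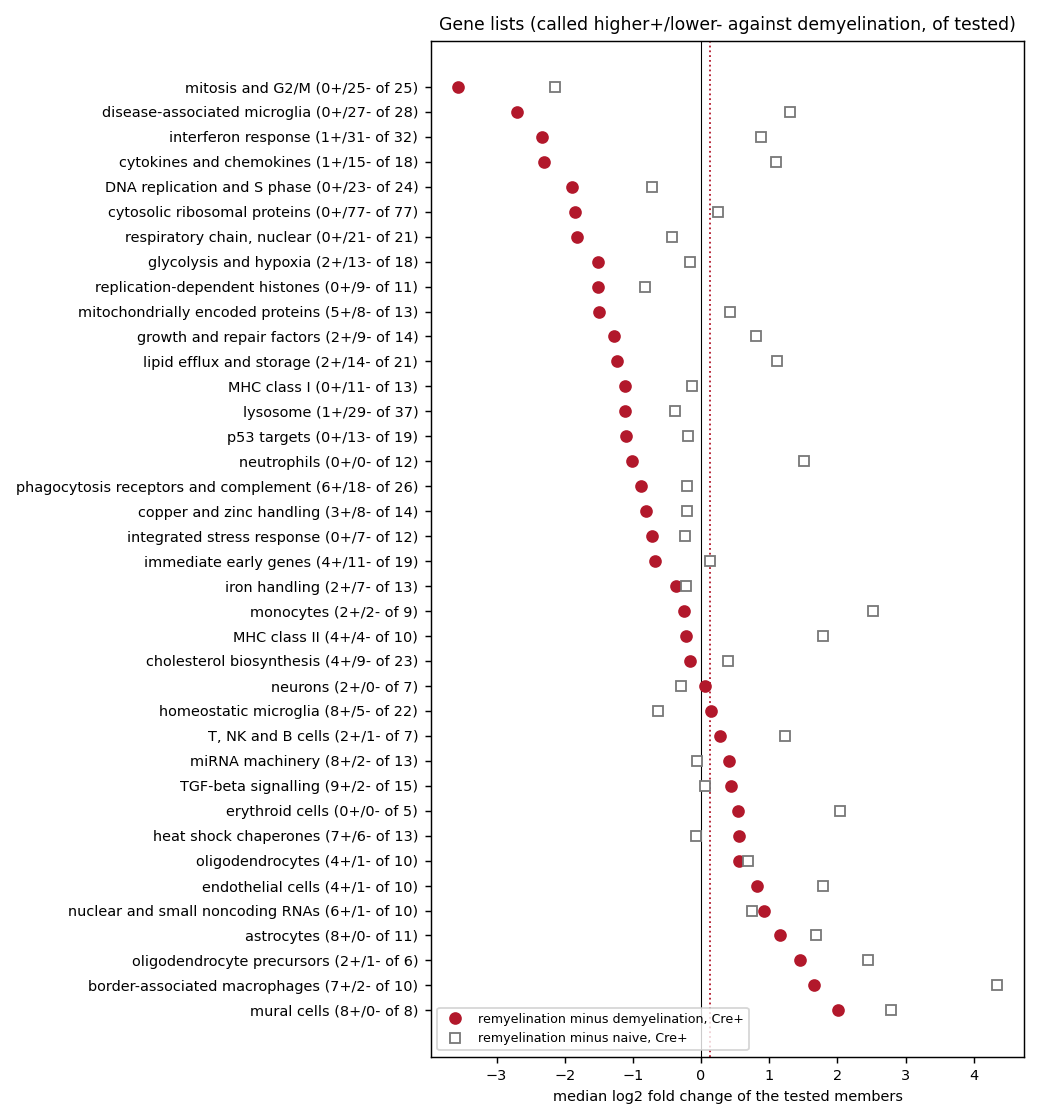
Median log2 fold change of each gene list (x axis), for Cre+ remyelination relative to demyelination (filled circles) and relative to naive (open squares), with the numbers of called members beside each list name. The dotted line is the median of all 17579 genes for the first comparison, 0.12. Mitosis, disease-associated microglia and interferon genes lie farthest to the left in the first comparison, and only mitosis among these 3 lies left of 0 against naive.

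The disease-associated microglia programme was lower in remyelination in nearly every member, yet most of it remained above naive. Of 28 members tested, 27 fell and 0 rose relative to demyelination, with a median log2 change of -2.70. In the step before, demyelination relative to naive, all 28 had risen, with a median of 4.15 (all genes called in that step, 52.2%), and both comparisons share the demyelination libraries. Relative to naive, 17 of the 28 were higher in remyelination and 5 lower, with a median of 1.3. Cst7 (ENSMUSG00000068129, chromosome 2, 150570415 to 150578944), which encodes cystatin F, an inhibitor of lysosomal cathepsins, fell the most of the named genes. It had 26.2, 26.1 and 23.9 CPM in Cre+ remyelination, 2797, 1968 and 2434 CPM in Cre+ demyelination and 5.71, 4.83 and 4.31 CPM in naive Cre+ libraries. The remyelination libraries sat far below demyelination and above naive, with no overlap on either side (-6.56 ± 0.27 and 2.37 ± 0.25, SE, edgeR, adjusted p = 1.24e-13 and 1.87e-07). Spp1 (ENSMUSG00000029304, chromosome 5, 104435118 to 104441050), the gene of the secreted protein osteopontin, had 83.8, 79.5 and 102 CPM in remyelination, 3278, 5371 and 3770.3 CPM in demyelination and 7.77, 6.36 and 5.96 CPM in naive libraries (-5.55 ± 0.33 relative to demyelination, edgeR, adjusted p = 6.05e-11). Lpl, which encodes lipoprotein lipase, had 90.6, 85.4 and 94.8 CPM in remyelination, 1431, 2249 and 1610.4 CPM in demyelination and 13.01, 21.1 and 16.9 CPM in naive libraries (-4.29 ± 0.21, edgeR, adjusted p = 2.14e-13). In both genes the same order held in every library.

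Other members also fell and stayed well above naive. Apoe, the gene of the lipid carrier apolipoprotein E, had 6061, 5216 and 4194 CPM in remyelination, 27981, 42022 and 32179 CPM in demyelination and 215, 192 and 238 CPM in naive libraries. It fell by 2.72 ± 0.22 relative to demyelination (edgeR, adjusted p = 1.14e-09) and was 4.59 ± 0.24 above naive. Gpnmb, which encodes a transmembrane glycoprotein of lipid-laden macrophages, had 28.1, 31.1 and 28.9 CPM in remyelination, 172, 295 and 248 CPM in demyelination and no more than 0.115 CPM in any naive library. Igf1, a growth factor gene that acts on oligodendrocyte precursors, had 21.6, 19.5 and 19.9 CPM in remyelination, 204, 349 and 228 CPM in demyelination and 0.515, 1.21 and 0.923 CPM in naive libraries (-3.68 ± 0.24, edgeR, adjusted p = 7.46e-11). Cybb, the catalytic subunit of the phagocyte NADPH oxidase, fell by 0.95 and stayed 3.2 above naive, and Axl, a receptor for apoptotic cells, fell by 2.54 and stayed 3.49 above naive.

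A smaller set of the programme was at or below naive. Cd52, which encodes a small surface glycoprotein, had 85.5, 85.9 and 81.5 CPM in remyelination, 1593, 1214 and 1351 CPM in demyelination and 89.8, 77.4 and 67.3 CPM in naive libraries, and its difference from naive was not called (0.11 ± 0.14, edgeR, adjusted p = 0.521). Fth1, the ferritin heavy chain, had 1264, 1213 and 1274 CPM in remyelination and 5993, 6094 and 5999.6 CPM in demyelination (-2.27 ± 0.13), and was not called against naive (-0.11 ± 0.13). Trem2, the lipid-sensing receptor on which much of this programme depends in mice, had 1073, 1013 and 978 CPM in remyelination, 2367, 2270.5 and 2275 CPM in demyelination and 1698, 1589 and 1579 CPM in naive libraries. Its remyelination libraries were the lowest of the 3 groups (-1.17 ± 0.085 relative to demyelination, -0.67 ± 0.084 relative to naive, edgeR). Cd9, Cd68, Ctsl and B2m also ended below naive, by 0.67, 0.66, 1.53 and 0.50. Timp2 was the member whose change was not called (-0.5 ± 0.37, adjusted p = 0.249), and its demyelination libraries spread widely, with 477, 1041 and 1492 CPM.

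**Figure D2:**
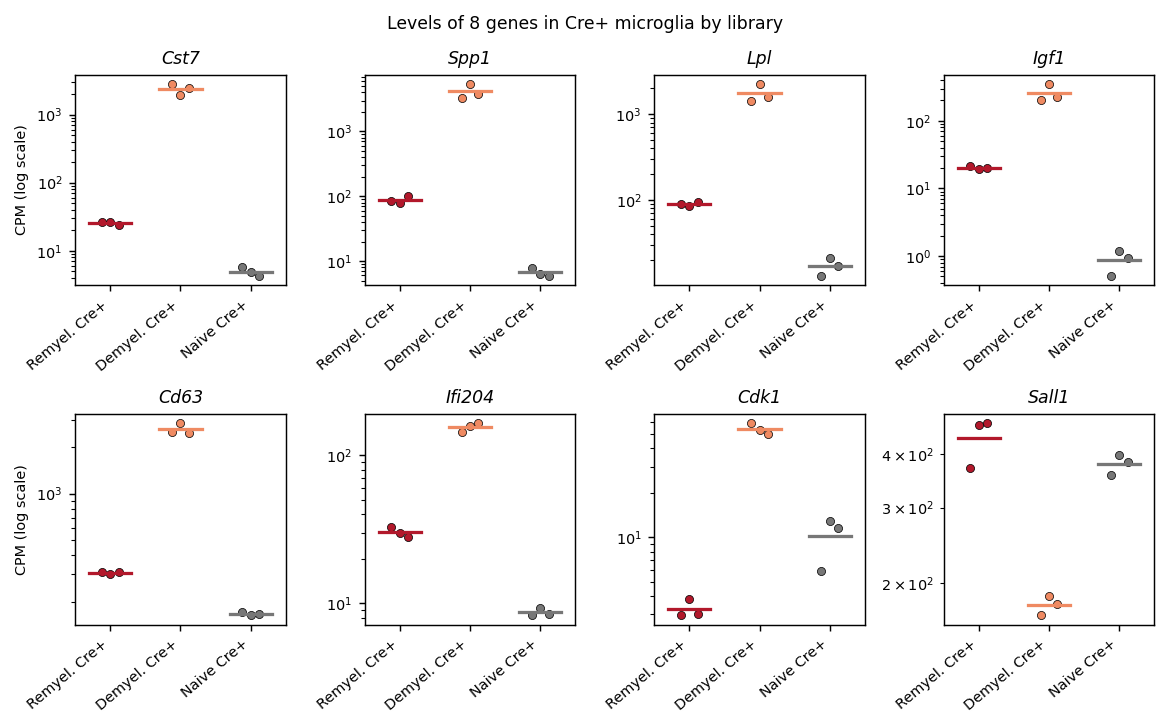
CPM on a log axis for 8 genes, 1 panel each, in Cre+ remyelination, demyelination and naive libraries (points, 3 per group) with the group mean (line). Cst7, Spp1, Lpl and Igf1 lie between the other groups in remyelination, Cdk1 lies below both, and Sall1 lies with naive.

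The 12 genes with the largest falls also held genes of lipid carriage, chemokines and biosynthesis. Apoc1, an apolipoprotein gene beside Apoe, had 1.53, 1.12 and 2.16 CPM in remyelination and 38.05, 139 and 58.6 CPM in demyelination (-5.63 ± 0.6, edgeR, adjusted p = 2.77e-07). Ch25h, which makes 25-hydroxycholesterol, had 6.42, 6.04 and 8.402 CPM in remyelination, 308, 269 and 291 CPM in demyelination and 0.655, 0.362 and 0.423 CPM in naive libraries (-5.38 ± 0.26, edgeR, adjusted p = 4.4e-13). The chemokine gene Ccl6 had 133, 119.7 and 149 CPM in remyelination, 2074, 2556 and 2066 CPM in demyelination and 77.03, 104 and 73. CPM in naive libraries (-4.06 ± 0.22). Psat1, an enzyme of serine synthesis, had 19.3, 23.8 and 17.8 CPM in remyelination and 415, 198 and 313 CPM in demyelination (-3.92 ± 0.27). Fabp3, a fatty acid carrier, and Cox6a2, a subunit of cytochrome c oxidase known from muscle, fell by 4.80 ± 0.47 and 3.92 ± 0.26. Stmn1, a microtubule regulator raised in dividing cells, fell by 3.95 ± 0.21. Cdk1 and Cd52 complete the 12 with Cst7, Spp1 and Lpl. The rule that chose these 12 required groups without overlap.

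Homeostatic genes did not move as a block. Of 22 members tested, 8 rose and 5 fell relative to demyelination, with a median of 0.14, close to that of all genes, while 17 were below naive and 1 above it, with a median of -0.64. Sall1, a transcription factor that defines microglial identity, had 371, 468 and 471 CPM in remyelination, 169, 187 and 179 CPM in demyelination and 357, 397 and 383 CPM in naive libraries. It was higher than in demyelination in all 3 libraries (1.29 ± 0.094, edgeR, adjusted p = 7.06e-12) and its difference from naive was not called (0.2 ± 0.092, adjusted p = 0.0608). Tmem119, a microglial surface protein gene, had 3041, 3149 and 3194 CPM in remyelination, 2059, 1752 and 1938 CPM in demyelination and 4749, 4617 and 4821 CPM in naive libraries, and so lay between them (0.71 ± 0.14, edgeR, adjusted p = 6.9e-05). P2ry12, the ADP receptor that steers microglial processes, had 3372, 3467 and 4815 CPM in remyelination, 4489, 4105 and 4070.2 CPM in demyelination and 11571, 9921 and 9335 CPM in naive libraries. Its remyelination and demyelination libraries overlapped (-0.12 ± 0.14, adjusted p = 0.479) and both were below naive. With the length and GC correction P2ry12 was called, at 0.35 (edgeR, adjusted p = 0.0296). The other 6 members that rose were Csf1r, the receptor for colony-stimulating factor, by 0.59, the apoptotic cell receptor Mertk by 0.78, the ectonucleotidase Entpd1 by 0.70, the fructose transporter Slc2a5 by 0.50, the TGF-beta receptor Tgfbr1 by 0.39 and the purine receptor P2ry13 by 0.33. Sparc, a matrix protein gene, fell instead, with 2209, 2099 and 2416 CPM in remyelination, 7938, 5496 and 6819 CPM in demyelination and 7933, 7411 and 7036 CPM in naive libraries (-1.59 ± 0.13). Gpr34, Olfml3 and Fcrls fell by 0.70, 0.51 and 0.86. With the length and GC correction the split was 7 higher and 9 lower, and Csf1r (0.18) and Tgfbr1 (0.275) were not called. P2ry13 (0.39) and Olfml3 (-0.23) were not called without the low-Cx3cr1 libraries, which leaves 1 Cre+ demyelination library.

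Interferon response genes, the antiviral set that type I interferons induce, were lower in remyelination almost throughout. Of 32 tested, 31 fell and 1 rose, with a median of -2.33. Relative to naive 22 were higher and 2 lower, with a median of 0.88. Isg15 (ENSMUSG00000035692, chromosome 4, 156199424 to 156200818), a ubiquitin-like protein gene, had 5.27, 5.31 and 4.801 CPM in remyelination, 40.4, 32.5 and 40.98 CPM in demyelination and 3.93, 2.49 and 2.42 CPM in naive libraries (-2.88 ± 0.2, edgeR, adjusted p = 2.69e-12). Oas1a (ENSMUSG00000052776, chromosome 5, 120896256 to 120907521), a sensor of double-stranded RNA, had 19.8, 14.9 and 16.2 CPM in remyelination, 102, 94.6 and 101 CPM in demyelination and 4.45, 6.09 and 5.46 CPM in naive libraries (-2.55 ± 0.17, edgeR, adjusted p = 5.84e-12). Ifi204, a DNA sensor gene with near relatives in the same cluster, had 32.8, 29.7 and 28.2 CPM in remyelination, 144, 159 and 165 CPM in demyelination and 8.33, 9.35 and 8.42 CPM in naive libraries (-2.37 ± 0.14). In these 3 genes each remyelination library lay between the other groups. Larger falls were those of Ifi27l2a (3.86), Ifi44 (3.67), Rsad2 (3.25), Oasl2 (3.16), Cxcl10 (3.08) and Ifit3 (3.02, a gene with a near-identical copy, Ifit3b). The regulator Irf7 fell by 2.53. Parp14, an ADP-ribosyltransferase, was the member that rose, with 67.7, 73.8 and 72.2 CPM in remyelination, 52.3, 57.02 and 60.04 CPM in demyelination and 34.8, 40.9 and 35.2 CPM in naive libraries (0.34 ± 0.11, edgeR, adjusted p = 0.0112). It was not called with the length and GC correction (-0.072, edgeR, adjusted p = 0.625).

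The interferon-stimulated response element (ISRE) is the short promoter sequence that interferon-activated factors recognise, and 2 of these promoters are shown because they carry it close to the gene start. Promoters are the 250 bases before to 50 bases after the RefSeq start, GRCm38.p6, 5′ to 3′ on the gene's strand. Capitals mark matches to the ISRE core, GAAA followed by any 2 bases and GAAA again, on either strand; the matches overlap one another.
Isg15: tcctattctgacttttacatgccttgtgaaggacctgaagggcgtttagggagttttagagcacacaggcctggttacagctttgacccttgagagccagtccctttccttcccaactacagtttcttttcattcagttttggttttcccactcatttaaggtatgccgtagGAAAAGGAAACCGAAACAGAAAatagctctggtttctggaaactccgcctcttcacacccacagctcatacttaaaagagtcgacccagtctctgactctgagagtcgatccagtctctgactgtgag
Oas1a: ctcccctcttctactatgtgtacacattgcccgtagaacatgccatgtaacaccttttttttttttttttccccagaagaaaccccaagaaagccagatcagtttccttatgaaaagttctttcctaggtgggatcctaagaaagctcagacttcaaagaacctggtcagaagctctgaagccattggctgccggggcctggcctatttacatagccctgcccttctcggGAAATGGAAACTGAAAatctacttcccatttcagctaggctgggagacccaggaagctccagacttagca
The Isg15 promoter, chr4:156200769-156201068 on the minus strand, has 3 overlapping matches that begin 78, 72 and 66 bases before the start. The Oas1a promoter, chr5:120907476-120907775 on the minus strand, has 2, beginning 20 and 14 bases before it. Of the 32 members 23 had a RefSeq promoter in the table, with 26 promoters in all, and 17 of these (65.4%) held a match, against 3.4% of all 32851 promoters. A match describes the letters in this window and not a bound factor.

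Antigen presentation genes divided by class. For class I, which displays peptides from inside the cell, 11 of 13 genes fell and 0 rose, with a median of -1.11. B2m, the shared light chain, had 1661, 1763 and 1914 CPM in remyelination, 12105, 11192 and 10621 CPM in demyelination and 2508, 2942 and 2111 CPM in naive libraries (-2.67 ± 0.19). The immunoproteasome subunit Psmb8 had 128, 123 and 129.5 CPM in remyelination and 493, 411 and 439 CPM in demyelination (-1.82 ± 0.11), and the heavy chains H2-D1 and H2-K1, whose reads are hard to assign among near-identical copies, fell by 1.82 and 1.57. For class II, which presents engulfed material to CD4 T cells, 4 of 10 genes rose and 4 fell, with a median of -0.22, and 7 were above naive. H2-Eb1 had 289, 134 and 159 CPM in remyelination, 87.4, 74.7 and 61.1 CPM in demyelination and 10.6, 13.3 and 8.42 CPM in naive libraries (1.38 ± 0.3, edgeR, adjusted p = 0.000611). H2-Aa had 301, 177 and 193 CPM in remyelination, 157, 143 and 120.0 CPM in demyelination and 12.03, 18.4 and 9.73 CPM in naive libraries (0.67 ± 0.28, edgeR, adjusted p = 0.0409). Remyelination replicate 1 was the highest for both chains. Ciita, the master activator of class II genes, had 6.34, 4.46 and 4.88 CPM in remyelination and 1.98, 1.89 and 2.11 CPM in demyelination (1.39 ± 0.25, edgeR, adjusted p = 3.49e-05), while Cd74, the invariant chain, was not called (-0.14 ± 0.21, adjusted p = 0.568). The peptide loaders H2-DMa and H2-DMb1 fell by 1.21 and 0.91. H2-Oa, which holds loading back, had 29.9, 25.3 and 26.96 CPM in remyelination and 95., 58.5 and 83.4 CPM in demyelination (-1.53 ± 0.12). Without the low-Cx3cr1 libraries, which leaves 1 Cre+ demyelination library, fewer class II genes were called, and H2-Aa (0.64) and H2-Ab1 (0.60) were not.

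Cytokine and chemokine genes fell in 15 of 18 cases and rose in 1, with a median of -2.31, and 11 were above naive against 4 below. Tnf had 29.4, 25.2 and 41.3 CPM in remyelination, 188, 188 and 168 CPM in demyelination and 11.1, 16.02 and 17.5 CPM in naive libraries (-2.51 ± 0.26). Il1b, the interleukin-1 beta gene, had 54.6, 55.97 and 54.6 CPM in remyelination, 333, 196 and 234 CPM in demyelination and 11.04, 9.83 and 8. CPM in naive libraries (-2.21 ± 0.3), so remyelination libraries lay between the other groups for both. Cxcl2, a neutrophil attractant, had 4.66, 5.05 and 3.76 CPM in remyelination, 33.5, 35.3 and 31.96 CPM in demyelination and at most 0.121 CPM in naive libraries. The monocyte attractants Ccl2 and Ccl12 went below naive. Ccl12 had 70.3, 59.3 and 70.3 CPM in remyelination, 637, 351 and 518 CPM in demyelination and 79.3, 101 and 98.2 CPM in naive libraries (-2.91 ± 0.18, and -0.48 relative to naive, edgeR). Nlrp3, the sensor of the inflammasome that matures interleukin-1 beta, was the member that rose, with 60.2, 57.7 and 60.2 CPM in remyelination and 40.3, 31.2 and 31.3 CPM in demyelination (0.79 ± 0.11).

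Cell division genes showed the deepest fall of any list, and unlike the interferon and disease-associated genes they ended below naive. All 25 mitosis and G2/M genes tested fell, with a median of -3.57, and 24 of the 25 were also below naive, with a median of -2.15. Cdk1 (ENSMUSG00000019942, chromosome 10, 69335146 to 69352938), the kinase that starts mitosis, had 2.98, 3.81 and 3.04 CPM in remyelination, 58.97, 52.9 and 49.9 CPM in demyelination and 5.94, 12.9 and 11.6 CPM in naive libraries (-4.03 ± 0.23 relative to demyelination, edgeR, adjusted p = 3.03e-13). Ccnb2 (ENSMUSG00000032218, chromosome 9, 70407692 to 70421547), a cyclin partner of this kinase, had 0.993, 1.71 and 1.12 CPM in remyelination, 32.2, 30. and 30.3 CPM in demyelination and 3.04, 8.67 and 8.08 CPM in naive libraries (-4.57 ± 0.39, edgeR, adjusted p = 1e-09). Mki67, the gene of the proliferation antigen Ki-67, had 2.75, 3.54 and 2.16 CPM in remyelination, 26.9, 28.9 and 27.8 CPM in demyelination and 3.46, 18.2 and 18.3 CPM in naive libraries (-3.29 ± 0.43, edgeR, adjusted p = 2.63e-06). Every remyelination library was below every demyelination library for these 3 genes, and below every naive library for Cdk1 and Ccnb2. Naive replicate 1, the naive library with low Cx3cr1, was the lowest of its group in each and reached the remyelination range for Mki67. Ube2c, which targets cyclins for destruction, Birc5, which encodes survivin, and the spindle kinase Aurka fell by 4.82, 4.45 and 3.61.

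The cell cycle genes homology region (CHR) is the promoter element through which many G2/M genes are held down outside the cycle, and the Cdk1 and Ccnb2 promoters show it at its usual place near the start. Capitals mark matches to TTTGAA on either strand, in the same window and build as above.
Cdk1: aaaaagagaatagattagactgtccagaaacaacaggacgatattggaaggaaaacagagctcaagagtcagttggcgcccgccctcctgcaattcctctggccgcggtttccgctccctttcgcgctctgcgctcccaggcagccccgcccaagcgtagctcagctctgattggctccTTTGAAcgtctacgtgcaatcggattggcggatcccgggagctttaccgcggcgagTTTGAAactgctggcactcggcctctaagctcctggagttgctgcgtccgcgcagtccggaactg
Ccnb2: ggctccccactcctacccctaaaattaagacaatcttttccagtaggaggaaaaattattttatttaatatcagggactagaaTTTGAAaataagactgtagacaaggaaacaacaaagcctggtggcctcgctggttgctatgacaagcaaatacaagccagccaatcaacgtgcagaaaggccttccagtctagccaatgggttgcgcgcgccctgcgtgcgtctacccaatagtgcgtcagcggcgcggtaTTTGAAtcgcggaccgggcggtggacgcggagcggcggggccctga
The Cdk1 promoter, chr10:69352863-69353162 on the minus strand, has 2 matches, beginning 71 and 15 bases before the start. The Ccnb2 promoter, chr9:70421505-70421804 on the minus strand, has 2, beginning 167 bases before and 4 bases after it. Of the 25 genes 21 had a RefSeq promoter, with 22 promoters, and 16 of these (72.7%) held a match, against 17.9% of all promoters. The letters are short, so many promoters hold them without any known link to the cycle.

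DNA replication and S-phase genes fell in 23 of 24 cases and rose in 0, with a median of -1.89. Pcna, the sliding clamp of replication, had 32.3, 27.7 and 34.2 CPM in remyelination, 132, 157 and 129.6 CPM in demyelination and 57.1, 62.2 and 53.96 CPM in naive libraries, with remyelination lowest throughout (-2.15 ± 0.11, edgeR, adjusted p = 1.37e-14). Rrm2, a subunit of ribonucleotide reductase, Gins2, of the replicative helicase, and the transcription factor E2f1 fell by 3.80, 2.40 and 2.35. Of 19 p53 target genes 13 fell and 0 rose, with a median of -1.10. Cdkn1a, the p21 inhibitor of cyclin-dependent kinases, had 23.1, 17.2 and 15.9 CPM in remyelination, 142, 106 and 118 CPM in demyelination and 10.8, 23.9 and 18.5 CPM in naive libraries (-2.7 ± 0.23). The apoptosis effector Bax and the cyclin Ccng1 fell by 1.31 and 1.10, while Mdm2, which degrades p53, was not called (0.012). Without the low-Cx3cr1 libraries, which leaves 1 Cre+ demyelination library, fewer of the 19 fell, with a median of -0.51.

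Lipid handling genes were counted by role. Of 21 genes of lipid efflux and storage, 14 fell and 2 rose, with a median of -1.24, and 11 were above naive. Plin2, which coats lipid droplets, had 47.6, 36.02 and 42.7 CPM in remyelination, 303, 249.8 and 269.7 CPM in demyelination and 16.1, 20.2 and 17.96 CPM in naive libraries (-2.7 ± 0.14, edgeR, adjusted p = 3.05e-14). Npc2, which carries cholesterol out of the lysosome, had 314, 281 and 292 CPM in remyelination, 1610.5, 1301 and 1479 CPM in demyelination and 468, 390.1 and 399.6 CPM in naive libraries (-2.31 ± 0.11). Plin2 remained above naive and Npc2 was below it. The efflux pump Abcg1 and the cholesterol esterifying enzyme Soat1 fell by 1.38 and 0.91. Rxra, the nuclear receptor partner of the sterol-sensing LXR factors, rose, with 36.1, 58.6 and 61.4 CPM in remyelination and 15.9, 15.2 and 18.7 CPM in demyelination (1.65 ± 0.18). Cholesterol biosynthesis genes were split, 4 of 23 rising and 9 falling. The later enzymes Ebp, Msmo1 and Nsdhl fell by 0.95, 0.94 and 0.68 and the earlier Fdps by 1.17. Lss, Tm7sf2 and the transcription factor gene Srebf2 rose by 0.64, 0.68 and 0.63. With the length and GC correction Lss and Srebf2 were not called (0.084 and -0.039). The median of -0.17 turned to 0.046 with upper-quartile scaling, so the list as a whole has no fixed direction.

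Uptake and degradation genes fell in part. Of 26 phagocytosis receptor and complement genes, 18 fell and 6 rose, with a median of -0.89. C1qc, a chain of the complement starter C1q, had 3819, 3698 and 3653 CPM in remyelination, 9745, 9211 and 9195 CPM in demyelination and 5988, 5995 and 5897 CPM in naive libraries, and remyelination libraries were lowest (-1.33 ± 0.085). Fcer1g, the signalling chain of Fc receptors, and the Fc receptor Fcgr3 fell by 1.87 and 1.51. C4b, a later complement component, rose, with 44.9, 57.3 and 31.5 CPM in remyelination, 15.7, 13.6 and 10.7 CPM in demyelination and 1.03, 1.93 and 3. CPM in naive libraries (1.74 ± 0.26, edgeR, adjusted p = 1.06e-05). Mertk, Lrp1, Mfge8, Itgav and Itgb5, receptors and a bridge for dying cells, rose by 0.78, 0.58, 0.78, 1.01 and 1.5. Lrp1 turned to -0.54 with the length and GC correction (edgeR, adjusted p = 6.08e-05). Mfge8 (0.68) was not called without the low-Cx3cr1 libraries, which leaves 1 Cre+ demyelination library. Lysosome genes fell in 29 of 37 cases and rose in 1, Tfeb, the transcription factor of lysosome genes, by 0.26, which turned to -0.68 with the length and GC correction (edgeR, adjusted p = 5.7e-05). Their median was -1.11, and 22 were below naive and 7 above. Cd63, a membrane protein of late endosomes, had 311, 302 and 312 CPM in remyelination, 2516, 2840.4 and 2452 CPM in demyelination and 172, 164 and 166 CPM in naive libraries (-3.08 ± 0.13, edgeR, adjusted p = 5.88e-16). Ctsb, the protease cathepsin B, had 3717, 3528 and 3578 CPM in remyelination, 14999, 15684 and 14497 CPM in demyelination and 2842, 3083 and 3057 CPM in naive libraries (-2.06 ± 0.1). Gla, Ctsz and Gusb, further hydrolases, fell by 2.78, 2.17 and 1.98. The CLEAR sequence CACGTGAC, the letters Tfeb recognises, stood in 8 of 35 promoters of this list (22.9%, 29 of 37 members matched, either strand) and in 2.2% of all promoters.

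Growth and repair factor genes fell in 9 of 14 cases and rose in 2, with a median of -1.28, and 8 were above naive. Besides Spp1 and Igf1, Pdgfa, a mitogen for oligodendrocyte precursors, had 13.4, 13.5 and 13.5 CPM in remyelination and 56.3, 36.1 and 45.4 CPM in demyelination (-1.77 ± 0.17). Osm, which encodes oncostatin M, and Gas6, the ligand of Axl and Mertk, fell by 1.62 and 0.94. Pdgfb and Tgfb1 rose by 0.80 and 0.43. TGF-beta is the signal that keeps microglia in the homeostatic state, and 9 of 15 genes of its pathway rose and 2 fell, with a median of 0.43. Smad3, which carries the signal to the nucleus, had 136, 130.4 and 133 CPM in remyelination, 44.4, 38.8 and 41.6 CPM in demyelination and 78.6, 91.9 and 92.1 CPM in naive libraries, with remyelination above both (1.68 ± 0.11, edgeR, adjusted p = 1.4e-12). The feedback inhibitor Smad7 had 58.7, 69.5 and 61.1 CPM in remyelination and 22.9, 16.98 and 26.3 CPM in demyelination (1.52 ± 0.15). The corepressor Tgif1 and the decoy receptor Bambi fell by 1.28 and 1.83. With the length and GC correction 6 of the 15 rose and 5 fell, with a median of 0.25, and Tgfb1 was not called (0.156).

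Genes of the miRNA pathway besides Dicer1 changed modestly. Of 13 tested, Dicer1 included, 8 rose and 2 fell, with a median of 0.41. Xpo5, which exports miRNA precursors from the nucleus, had 36.2, 37. and 41.6 CPM in remyelination and 20.8, 20.4 and 21.5 CPM in demyelination (0.87 ± 0.12). The nuclear processor Drosha, the Argonaute gene Ago4 and the silencing scaffold Tnrc6c rose by 0.67, 0.84 and 1.17, and the Dicer partners Prkra and Tarbp2 fell by 0.98 and 0.55. With the length and GC correction 5 rose and 5 fell, and the median was -0.10.

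Genes of energy metabolism were mostly lower, with exceptions. Glycolysis and hypoxia genes fell in 13 of 18 cases and rose in 2, with a median of -1.52. Ldha, lactate dehydrogenase A, had 187, 173 and 209.7 CPM in remyelination, 1205, 1103 and 1114 CPM in demyelination and 265, 259 and 247 CPM in naive libraries (-2.59 ± 0.096, edgeR, adjusted p = 3.25e-16). Pgk1 had 35.97, 27.4 and 31.05 CPM in remyelination and 185, 172 and 180.3 CPM in demyelination (-2.51 ± 0.11), and Gapdh, Aldoa and the regulator Hif1a fell by 2.42, 2.11 and 1.58. The first-step kinase Hk1 and the phosphofructokinase Pfkp rose by 1.01 and 0.93, and Pfkp was not called with the length and GC correction (0.285). All 21 nuclear respiratory chain genes fell, with a median of -1.81 (-1.79 with the length and GC correction), and 16 were below naive. Ndufa1, of complex I, had 35.7, 32.7 and 38.6 CPM in remyelination, 278, 238 and 233 CPM in demyelination and 35.9, 34.5 and 32.3 CPM in naive libraries (-2.81 ± 0.15). Remyelination and naive libraries overlapped for Ndufa1, with both far below demyelination. Sdhb, of complex II, and Atp5j, of the ATP synthase, fell by 1.58 and 2.16. Cytosolic ribosomal protein genes, whose transcripts are also short, moved with these genes: all 77 tested fell, with a median of -1.85, and in Cre- libraries, where 54.7% of all genes were called, all 77 fell, with a median of -1.28. Of 11 histone genes 9 fell and 0 rose, and of 10 nuclear and small noncoding RNAs 6 rose and 1 fell, or 2 and 3 with the length and GC correction. The part of library set in these changes was not tested.

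Metal handling is of interest because cuprizone binds copper. Of 14 copper and zinc genes 8 fell and 3 rose, with a median of -0.80. Atox1, the chaperone that passes copper to its pumps, had 60.4, 45.9 and 45.4 CPM in remyelination and 235, 225 and 205 CPM in demyelination (-2.13 ± 0.12). Cox17, the copper chaperone of cytochrome c oxidase, and Slc31a1, the copper importer, fell by 1.76 and 1.18, and the metallothionein Mt1 had 78.5, 66.9 and 61.3 CPM in remyelination and 176, 209.6 and 159.5 CPM in demyelination (-1.4 ± 0.17). Mt3, the zinc exporter Slc30a1 and the copper pump Atp7b rose by 1.28, 1.5 and 1.78, and Mt3 was not called with the length and GC correction (0.61). Of 13 iron genes 7 fell and 2 rose. The ferritin light chain Ftl1 and the haem oxygenase Hmox1 fell by 1.78 and 0.90. The ferroxidases ceruloplasmin and hephaestin were the 2 that rose, with Cp at 28.1, 25.7 and 27.4 CPM in remyelination and 11.9, 8.63 and 9.66 CPM in demyelination (1.43 ± 0.21) and Heph higher by 1.94.

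Stress genes went both ways. Of 13 heat shock chaperone genes 7 rose and 6 fell. The inducible Hspa1b, a near-identical copy of Hspa1a, had 2289, 2219 and 2099 CPM in remyelination and 523, 179 and 643 CPM in demyelination (2.3 ± 0.31), and Hsph1 had 55.7, 54.3 and 53.3 CPM in remyelination and 26.8, 16.8 and 26.1 CPM in demyelination (1.23 ± 0.15). Hspa5 of the endoplasmic reticulum and Hspd1 of mitochondria fell by 1.26 and 1.28. Immediate early genes, which respond within minutes to handling and tissue dissociation as well as to signals, rose in 4 of 19 cases and fell in 11. Rhob had 393, 389 and 483 CPM in remyelination and 116, 135 and 144 CPM in demyelination (1.68 ± 0.15), and Jun rose by 1.13, while Fos, Egr1, Atf3 and Ier3 fell by 1.09, 1.34, 2.08 and 2.73. Integrated stress response genes fell in 7 of 12 cases and rose in 0, among them Asns, the asparagine synthetase, by 2.79, Ddit3 by 0.88 and the transcription factor Atf4 by 0.57.

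Most of the 12 largest rises lay outside these programmes. Itga9, an integrin subunit, had 154, 177 and 178 CPM in remyelination, 18.4, 21.8 and 30.2 CPM in demyelination and 69.5, 98.7 and 124 CPM in naive libraries (2.86 ± 0.24, edgeR, adjusted p = 3.57e-09). Adrb1, the beta-1 adrenergic receptor, had 29.02, 24.9 and 24.8 CPM in remyelination, 1.47, 4.91 and 4.97 CPM in demyelination and 10.3, 12.3 and 11.2 CPM in naive libraries (2.82 ± 0.36), and Clstn1, a transmembrane cargo adaptor, had 187, 226 and 212 CPM in remyelination and 29.4, 25.5 and 44.2 CPM in demyelination (2.66 ± 0.3). In all 3 remyelination was above both other groups. Gpr165, an orphan receptor, had 39.8, 45.3 and 78.9 CPM in remyelination, 6.703, 10.6 and 5.56 CPM in demyelination and 96.5, 158 and 159 CPM in naive libraries (2.84 ± 0.42), so it rose and was still below naive. Ildr2 and Sppl3 rose by 2.65 and 2.59. Ano8 and Cebpb, a transcription factor gene of macrophage activation, had demyelination libraries that spread widely, with 116, 112 and 106 CPM in remyelination and 3.33, 6.51 and 41.1 CPM in demyelination for Cebpb (2.75 ± 0.85, edgeR, adjusted p = 0.00986). In a fit of the compared groups alone Cebpb was not called (adjusted p = 0.0776).

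The largest of the 12 rises was that of mt-Co3, of the mitochondrial genome, with 51.6, 44.7 and 44.97 CPM in remyelination and 2.13, 2.59 and 2.43 CPM in demyelination (4.31 ± 0.21, edgeR, adjusted p = 6.52e-14). The 13 mitochondrially encoded genes, which have near-identical nuclear copies, did not move together: 5 rose, mt-Co2 by 4.98 and mt-Atp6 by 3.88 among them, and 8 fell, mt-Nd1 by 2.25 and mt-Co1 by 1.5 among them. These transcripts come from long shared precursors. Cre- libraries gave 5 higher and 7 lower, with mt-Co3 at 4.98 ± 0.22. Whether the read assignment differed between library sets was not tested.

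Markers of other cell types moved with remyelination and are given as measured levels. Border-associated macrophages use the Cx3cr1 locus and carry CD11b, and as cells of high CD45 they lie mostly outside a gate for intermediate CD45. Of their 10 markers 7 rose and 2 fell relative to demyelination, with all 10 above naive. The summed level of these markers was 894 to 1326 CPM in remyelination, 316 to 350.0 CPM in demyelination and 341 to 399.8 CPM in naive libraries. Mrc1, the mannose receptor, had 184, 126 and 114 CPM in remyelination, 29.1, 26.1 and 21.6 CPM in demyelination and 5.99, 7.73 and 7.42 CPM in naive libraries (2.46 ± 0.19, edgeR, adjusted p = 2.9e-10). Cd163, a haemoglobin scavenger receptor, had 44.5, 26.6 and 25.4 CPM in remyelination, 4.07, 4.81 and 3.13 CPM in demyelination and 0.702, 0.677 and 0.885 CPM in naive libraries (3.0 ± 0.27, edgeR, adjusted p = 1.4e-09). Remyelination replicate 1, the library highest in H2-Aa and H2-Eb1, was also the highest in Mrc1 and Cd163. Stab1, a scavenger receptor that made up most of the summed level in remyelination and naive libraries, had 799, 746 and 593 CPM in remyelination, 152, 189 and 161 CPM in demyelination and 324, 383 and 371 CPM in naive libraries. In demyelination relative to naive 9 of the 10 markers were higher and Stab1 was lower. Lyve1 rose by 2.20, and Siglec1 and Ms4a7 fell by 1.18 and 0.58, the second without a call under the length and GC correction (-0.47). The part of such cells in the class II, complement and efflux results was not tested.

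Vascular and glial transcripts were a further set. All 8 mural cell markers rose, with a summed level of 87.3 to 107 CPM in remyelination, 20.99 to 26.3 CPM in demyelination and 9.92 to 19.7 CPM in naive libraries. Pdgfrb, the growth factor receptor of pericytes, had 13.4, 12.5 and 12.6 CPM in remyelination, 1.63, 2.41 and 1.46 CPM in demyelination and 0.936, 2.05 and 2.15 CPM in naive libraries (2.81 ± 0.32, edgeR, adjusted p = 2.3e-08). Of 11 astrocyte markers 8 rose and 0 fell, and the summed level was 686 to 729 CPM in remyelination and 287 to 385 CPM in demyelination. The bicarbonate transporter Slc4a4 had 24.1, 31.6 and 25.1 CPM in remyelination and 3.64, 4.62 and 5.72 CPM in demyelination (2.54 ± 0.31), and the GABA transporter Slc6a11, outside the list and among the 12 largest rises, had 34.8, 35.2 and 30.2 CPM in remyelination and 4.03, 7.36 and 5.94 CPM in demyelination (2.54 ± 0.3). Without the low-Cx3cr1 libraries, which leaves 1 Cre+ demyelination library, fewer of the astrocyte and mural markers were called. Of 10 oligodendrocyte markers 4 rose and 1 fell, with a median of 0.56. Mobp, Myrf, Mal and Mag rose by 1.53, 2.08, 1.34 and 0.49, and Cnp fell by 0.36. These markers, with Cnp, Mbp and Mag the most abundant, summed to 186 to 220.4 CPM in remyelination and 193 to 199 CPM in demyelination, and Mbp, the myelin basic protein gene, was not called (0.16), and stood at -0.34, with a call, under the length and GC correction. Mag and Myrf lost their call with the length and GC correction. Cnp lost its call with upper-quartile scaling (-0.146, edgeR, adjusted p = 0.173). Of 9 monocyte markers 2 rose and 2 fell, with a median of -0.25. They summed to 153 to 249.8 CPM in remyelination and 506 to 803 CPM in demyelination, with Fn1, fibronectin, at 44.98, 48.2 and 38.97 CPM in remyelination, 560.5, 272 and 362 CPM in demyelination and 1.498, 1.67 and 2.31 CPM in naive libraries (-3.18 ± 0.41), and Ccr2, the receptor of recruited monocytes, at 51.9, 43.96 and 40.9 CPM in remyelination and 24.3, 13.9 and 10.4 CPM in demyelination (1.48 ± 0.27). The integrin Itga4 rose by 1.36, and Chil3, with 90.5, 105 and 37.05 CPM in remyelination and 162, 157 and 141 CPM in demyelination, was not called (-0.98 ± 0.88). Neutrophil markers had no call in either direction among 12, and summed to 402 to 1165 CPM in remyelination and 1413 to 1768 CPM in demyelination. Endothelial markers gave 4 higher and 1 lower of 10, with the junction gene Pecam1 at 20.5, 21.7 and 28.1 CPM in remyelination and 5.42, 7.59 and 5.34 CPM in demyelination (1.93 ± 0.22). Oligodendrocyte precursor markers gave 2 higher and 1 lower of 6, the lower one being Cspg4, the NG2 proteoglycan, with 9.93, 15.8 and 11.8 CPM in remyelination and 109, 63.2 and 89.1 CPM in demyelination (-2.8 ± 0.28). Lymphocyte markers gave 2 higher and 1 lower of 7, neuron markers 2 higher and 0 lower of 7, and erythroid markers no call of 5.

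Against naive Cre+ microglia the largest differences among clearly expressed genes named macrophage and complement genes again and some others. F13a1, a coagulation factor gene of tissue macrophages, had 141, 96.3 and 72.2 CPM in remyelination and 3.14, 2.56 and 4.31 CPM in naive libraries (4.97 ± 0.3, edgeR, adjusted p = 3.09e-10), and Fn1, Apoe, C4b, Pf4 and Mrc1 were higher by 4.59, 4.59, 4.46, 4.38 and 4.32. Klrd1, a natural killer receptor gene, had 1.53, 2.17 and 2.88 CPM in remyelination, 1.94, 3.96 and 1.73 CPM in demyelination and 26.1, 30.2 and 29.9 CPM in naive libraries (-3.71 ± 0.33 relative to naive, edgeR, adjusted p = 3.54e-09). Its remyelination and demyelination libraries overlapped and both were far below naive. The prostaglandin receptor Ptger3, the primase subunit Prim2 and Coro2a were lower than naive by 2.73, 2.43 and 2.34.

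The same change was then compared between genotypes, as the log2 change between the states in Cre+ minus that in Cre-. An offset common to the remyelination libraries of both genotypes drops out of this difference. It was called for 657 of 17579 genes (3.74%), 140 higher (0.796%) and 517 lower (2.94%), with a median of -0.012. Leaving out single libraries gave 89 to 1173 genes, the lowest without Cre- remyelination replicate 2 and the highest without Cre+ demyelination replicate 2, and 44 genes were called without the low-Cx3cr1 libraries. In cell division genes 14 of 25 had a called difference, all lower, so that the fall was deeper in Cre+, with a median of -2.15. Mki67 had 2.75, 3.54 and 2.16 CPM in Cre+ remyelination and 26.9, 28.9 and 27.8 CPM in Cre+ demyelination, against 4.12, 7.201 and 6.63 CPM in Cre- remyelination and 7.18, 6.42 and 7.95 CPM in Cre- demyelination. The Cre+ demyelination libraries were the high ones, and the Cre- groups were close together (-3.03 ± 0.6 for the difference, edgeR, adjusted p = 0.0138, and -0.26 ± 0.42 within Cre-). Cdk1 fell in both genotypes, with 3.24, 2.84 and 4.697 CPM in Cre- remyelination and 23.9, 23.4 and 21.8 CPM in Cre- demyelination, and by more in Cre+ (-1.36 ± 0.33, edgeR, adjusted p = 0.0246). Ube2c and Birc5 differed by -3.39 and -2.40. Without the low-Cx3cr1 libraries, which leaves 1 Cre+ demyelination library, the median was -2.14. This gives the size only and does not show that the calls held. Without Cre- remyelination replicate 2 the call was left in 1 of 25 genes, and without Cre+ demyelination replicate 1 in 3.

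**Figure D3:**
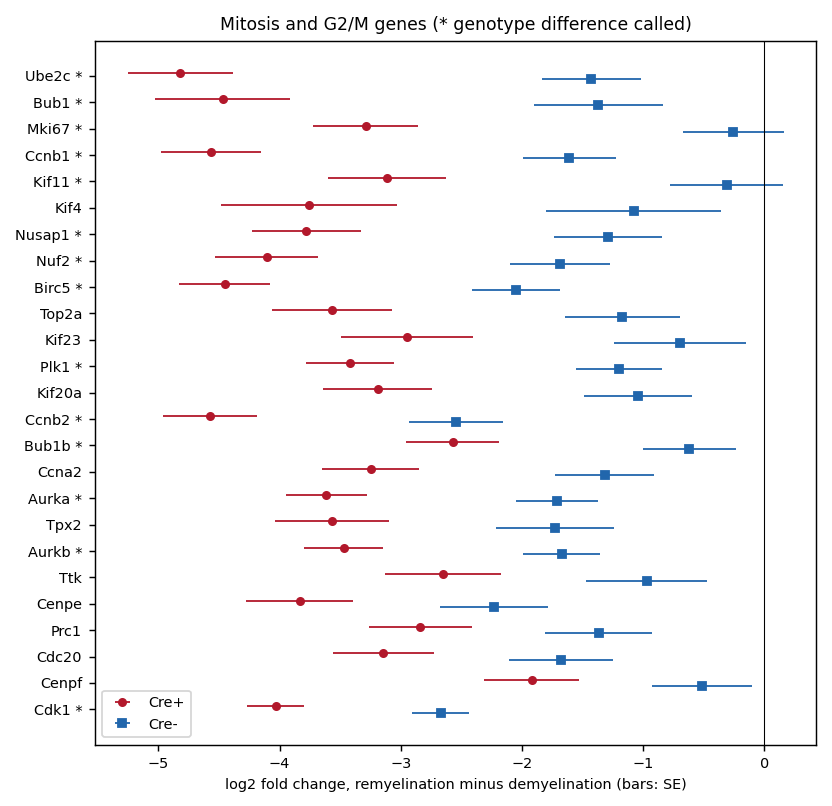
Log2 fold change of remyelination relative to demyelination (x axis, bars are SE) for 25 mitosis and G2/M genes, in Cre+ (circles) and Cre- (squares) microglia. A star marks the 14 genes whose difference between genotypes was called, and in these the Cre+ point lies to the left.

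Class II genes differed the other way. H2-Aa had 154, 178 and 254 CPM in Cre- remyelination and 481, 497 and 511 CPM in Cre- demyelination, and so fell by 1.34 where Cre+ libraries rose by 0.67 (2.02 ± 0.39 for the difference, edgeR, adjusted p = 0.0129). H2-Eb1 and H2-Ab1 differed by 2.26 ± 0.42 and 1.83 ± 0.35 (edgeR, adjusted p = 0.0115 and 0.0129). Cd74 had 1234, 697 and 771 CPM in Cre+ remyelination and 1107, 945 and 925 CPM in Cre+ demyelination, against 679, 871 and 906 CPM in Cre- remyelination and 2502, 2541 and 2311 CPM in Cre- demyelination (1.44 ± 0.29, edgeR, adjusted p = 0.0132). For all 4 genes the Cre- demyelination libraries stood above the Cre+ ones, and the remyelination libraries of the genotypes overlapped. In the list 5 of 10 genes had a called difference above 0 and 1, H2-Oa, below. Without the low-Cx3cr1 libraries the difference was 2.25 for H2-Eb1, 1.98 for H2-Aa, 1.75 for H2-Ab1 and 1.51 for Cd74, close to the values above. With the 1 Cre+ demyelination library that then remains, assumed to vary like the other groups, none of the 10 was called.

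**Figure D4:**
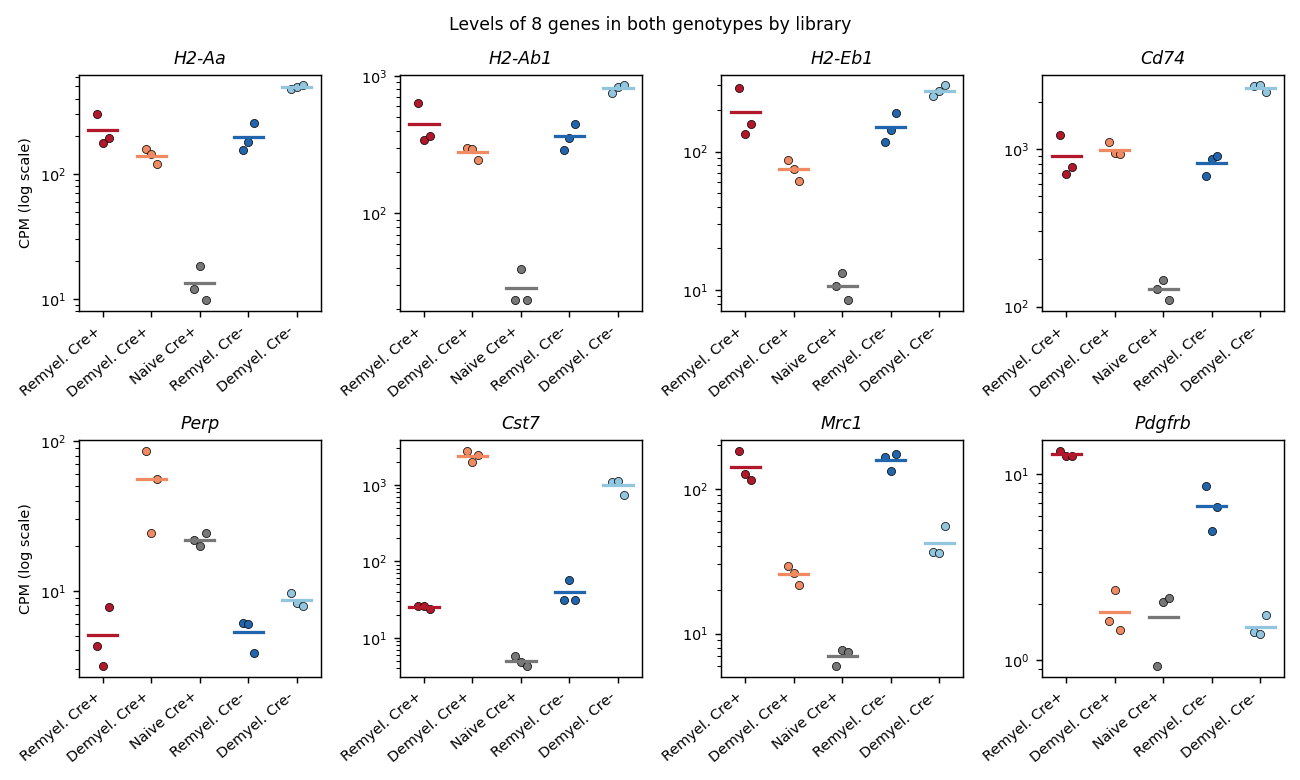
CPM on a log axis for 8 genes in Cre+ remyelination, demyelination and naive and in Cre- remyelination and demyelination libraries (points, 3 per group) with the group mean (line). The 4 class II genes are highest in Cre- demyelination, and Perp spreads across the Cre+ demyelination libraries.

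Other differences between genotypes were those of Cst7, which fell by 6.56 in Cre+ and by 4.64 in Cre- microglia (-1.92 ± 0.31, edgeR, adjusted p = 0.0066), Cd52 (-1.08 ± 0.2) and Ccl2 (-1.81 ± 0.28). Of the disease-associated list 6 of 28 had a called difference, all lower, as had 12 of 21 respiratory chain genes, 8 of 18 glycolysis and hypoxia genes and 8 of 37 lysosome genes. Without the low-Cx3cr1 libraries 0 disease-associated, 0 respiratory chain, 0 lysosome and 1 glycolysis and hypoxia gene had this call, while the median differences were -0.50, -0.62, -0.24 and -0.41, against -0.42, -0.63, -0.32 and -0.51 with them. Cst7 then differed by -1.63 (edgeR, adjusted p = 0.104). Perp, a p53 target of cell junctions, had 4.28, 3.15 and 7.76 CPM in Cre+ remyelination, 86.6, 24.2 and 55.8 CPM in Cre+ demyelination, 6.08, 5.96 and 3.86 CPM in Cre- remyelination and 9.701, 8.31 and 7.95 CPM in Cre- demyelination (-2.76 ± 0.62, edgeR, adjusted p = 0.0231). Olfm4, a secreted glycoprotein gene, had 6.57, 4.59 and 4.16 CPM in Cre+ remyelination and 41.2, 11.1 and 28.3 CPM in Cre+ demyelination (-2.89 ± 0.52). Nid2, of basement membranes, Upk1b and Ache, the acetylcholinesterase, differed by -2.4, -2.12 and -2.04. In these 5 genes Cre+ demyelination replicate 2, the one with Cx3cr1 at 41.5%, was the lowest of its group, and without the low-Cx3cr1 libraries the differences were smaller, at -1.61 for Olfm4, -1.56 for Perp, -1.09 for Nid2, -0.74 for Upk1b and -1.08 for Ache, with no call. Naive Cre+ libraries were near or above the Cre+ demyelination level for Nid2 and Upk1b. Postn, which encodes the matrix protein periostin, had 18.8, 18.2 and 20.5 CPM in Cre+ remyelination and 29.3, 99.7 and 40.98 CPM in Cre+ demyelination, against 18.1, 24.4 and 24.2 CPM in Cre- remyelination and 270.2, 263 and 220.2 CPM in Cre- demyelination (1.93 ± 0.45). C1rl, a complement protease relative, rose in Cre+, with 15.3, 15.3 and 15.3 CPM in remyelination and 2.63, 6.65 and 4.27 CPM in demyelination (1.77 ± 0.25), and was not called in Cre- (0.35 ± 0.24).

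Gene length moved with the comparison. Across 17534 genes Spearman's rho between exon length and the Cre+ log2 change was 0.138, and across 17527 genes that with GC content was 0.112, where genes are not independent replicates. In order of increasing length, the 5 equal groups of genes had medians of 0.13, -0.27, -0.019, 0.20 and 0.45. In the longest group 51.4% of genes were higher and 19% lower, and in the second shortest 18.9% were higher and 42.6% lower. Cre- microglia gave nearly the same run, 0.057, -0.32, -0.064, 0.16 and 0.39, and the difference between genotypes ran from -0.11 to 0.037. With the length and GC correction the disease-associated microglia list gave 27 lower of 28 (median -2.9), the interferon response list 30 lower and 0 higher of 32 (median -2.21), and the mitosis and G2/M list 25 lower of 25 (median -3.57).

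**Figure D5:**
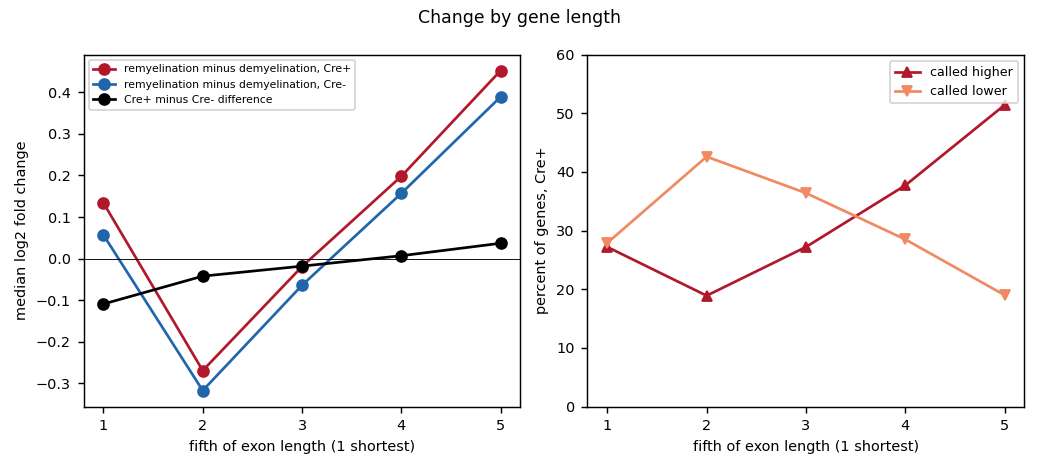
Left, the median log2 fold change of remyelination relative to demyelination in 5 groups of genes by exon length, for Cre+, Cre- and their difference. Right, the percent of genes called higher and lower in Cre+; the longest group has 51.4% higher and 19% lower.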

How the data were processed

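RNA from sorted mouse microglia was sequenced in 24 libraries, 3 in each of 8 groups. The deposited values are raw read counts per gene. Per the submitters' processing notes, tools were Trimmomatic 0.36, STAR 2.5.2b, featureCounts of Subread 1.5.2 and DESeq2, with the build GRCm38; per the labels' protocols, RNA was isolated with RNeasy Mini and libraries were made with an ultra-low input kit. No source used here gives the strand setting or the handling of multiply mapped reads, so genes with near-identical copies and overlapping or antisense genes are uncertain. Of 49315 gene identifiers, 49056 were matched to GENCODE M21 for names, positions and exon lengths, and 48970 had a GC value.

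The main test was edgeR's quasi-likelihood F test (edgeR 4.0.16, R 4.3.3) on one fit of 8 group means to all 24 libraries, with TMM scaling, robust dispersions and 16 residual degrees of freedom. The filter filterByExpr left 17579 genes. The 5 contrasts fitted were 2-sided, p-values were adjusted by Benjamini-Hochberg across these genes, and 0.05 was the threshold. CPM use TMM-scaled library sizes, and errors of log2 changes are SE. Library totals were 8.87 to 44.53 M counts. On simulated counts for 17295 genes, 98 of 100 genes changed by 1 on the log2 scale and 100 of 100 changed by 2 were called with the right sign in the Cre+ comparison of remyelination and demyelination, and 7 of 17095 unchanged genes were called. Most genes were unchanged in these counts, so scaling under a change as broad as the measured one was not tested. Recovery of genes with low counts was not tested separately. Every pair of libraries in a group differed by more than counting noise. P-values measure the spread between libraries labelled as biological replicates.

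Genes are named by these rules: the 12 largest rises and 12 largest falls without overlap and with a mean log2 CPM of at least 3, up to 3 members with the smallest p per list, the 6 largest in each direction between genotypes and against naive, and Dicer1 and Cx3cr1. Further list members are examples chosen with their values seen. The members and lists were chosen with earlier results of these data known. No test of a list as a whole was made. Promoter sequences are RefSeq's, GRCm38.p6. Alternatives were other scalings, other filters, DESeq2 1.42.0, a correction for length and GC content, thinned counts, a minimum fold of 1.5, a replicate block, the compared groups alone and leaving out libraries.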

Additional observations from a re-analysis of the deposited data

Results flagged for a closer look

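Of the 131 genes named by rule, 37 are listed here because the change between demyelination and remyelination differed between Cre+ and Cre- microglia by an edgeR test of that difference (adjusted p under 0.05). Values are the log2 change in Cre+ minus that in Cre-. Mki67 (-3.03) and Ube2c (-3.39), given in the report as examples, differed more than any of them. Of the named genes 12 were chosen for the size of this difference. Most others were chosen for a large change or small p in these libraries. The 37 of 131 is therefore not a rate of genotype differences. Over all genes tested the difference was called for 657 of 17579 (3.74%). No test for outlying samples was made in these groups of 3, and results with single libraries left out are given below.

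The difference was below 0, so that Cre+ cells had the lower change, in cell division genes, namely Birc5 (-2.4), Aurka (-1.91), Stmn1 (-1.64), Cdk1 (-1.36) and Pcna (-0.72). It was below 0 in the activation and chemokine genes Cst7 (-1.92), Ccl2 (-1.81), Ccl12 (-1.3), Cd52 (-1.08), Isg15 (-0.99) and Tyrobp (-0.64), in the lysosome, lipid and receptor genes Npc2 (-0.64), Cd63 (-0.61) and Fcer1g (-0.56) and in the class II modulator H2-Oa (-0.76). The metabolic genes were Psat1 (-1.91), Ldha (-0.89), Pgk1 (-0.83), Aldoa (-0.63), Atp5j (-0.72), Cox17 (-0.63), Ndufb8 (-0.59) and Sdhb (-0.45). The remaining genes below 0 were Olfm4 (-2.89), Perp (-2.76), Nid2 (-2.4), Upk1b (-2.12), Ache (-2.04), Coro2a (-1.67) and Sparc (-0.94). In Olfm4, Perp, Nid2, Upk1b, Ache and Coro2a the Cre+ demyelination replicate with the higher Cx3cr1 level was the lowest of its 3 libraries.

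The difference was above 0 in the class II genes H2-Eb1 (2.26), H2-Aa (2.02), H2-Ab1 (1.83) and Cd74 (1.44), and in Postn (1.93), C1rl (1.42) and Hsph1 (0.96). Leaving out the libraries with low Cx3cr1, which leaves 1 Cre+ demyelination library, was followed only for the 12 genes named for this difference. The class II genes among these kept their size (H2-Eb1 2.25, H2-Aa 1.98, H2-Ab1 1.75, Cd74 1.51). Upk1b (-0.74), Nid2 (-1.09), C1rl (0.85) and Postn (1.11) were smaller. Whether the other flagged genes held in this setting was not tested gene by gene.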

How the results depend on the processing

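Under every alternative run, 0 of the 111 genes named by rule for the main comparison reversed. Nearly all of them were chosen for a large change or small p in these data, so reversal was unlikely beforehand. With the length and GC correction 9237 called genes were shared with the main fit, 9154 of them with the same sign. Further list members turned with that correction, for example Lrp1 and Tfeb with a call and Parp14 and Srebf2 without one. Called genes numbered 9185 to 11565 under other scalings, filters, DESeq2, thinning, the compared groups alone and the length and GC correction. Fewer were called without the low-Cx3cr1 libraries, which leaves 1 Cre+ demyelination library. A minimum fold of 1.5 left 6547, and 4470 against naive. Leaving out single libraries gave 10035 to 10683 genes, and 9108 to 9791 against naive. The share called higher, 51.3% by the main scaling, depended on it, with 61.7% under upper-quartile scaling and 41.7% with the length and GC correction, and against naive 65.2% and 30.4%. Of the named genes 10 lost their call under some alternative, among them Mag and Myrf with the length and GC correction and Itga4, Aldh1l1, Cdh5, Syt1 and Ighm without the low-Cx3cr1 libraries.

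The difference between genotypes, 657 genes, was the least stable. It gave 1026 genes with no low-count filter, 1421 with DESeq2, 1062 with the compared groups alone, 0 with a minimum fold of 1.5 (821 at an unadjusted p under 0.05 in edgeR's glmTreat) and 44 without the low-Cx3cr1 libraries. Leaving out single libraries gave 89 to 1173. All 12 genes named for it by size lost their call without the low-Cx3cr1 libraries, which leaves 1 Cre+ demyelination library. The class II genes H2-Eb1, H2-Aa, H2-Ab1 and Cd74 kept their size (2.25, 1.98, 1.75 and 1.51), while Upk1b (-0.74), Nid2 (-1.09), C1rl (0.85) and Postn (1.11) were smaller.

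Same-numbered libraries did not deviate together between Cre+ remyelination and demyelination (r = 0.011, 0.002 and 0.004). With 3 libraries per group this check is weak, and it does not decide pairing within a library set. Numbers were used here only to name samples. A replicate block gave 11131 genes, 10182 against naive and 650 between genotypes, and with the length and GC correction 10584, 10994 and 539. The block alone ended no call of a gene named by rule and gave one for Cx3cr1 (2.56, adjusted p = 0.0471). With the correction it ended those of Mag, Myrf and Camk2a (adjusted p = 0.0506 for Camk2a). Totals of 10.7 to 12.56 M reads limit genes below about 1 CPM in remyelination.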
